A study of Homo sapiens with 6 samples.

Results

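The genes described here are 43 genes of the lysosome, taken by name from the table of gene counts: hydrolases, cathepsins, lysosomal membrane proteins, activator proteins and the 3 MiT transcription factors TFEB, TFE3 and MITF. All 43 had a row among the 56505 rows of the table, and 39 passed the filter on low counts that left 19567 genes for testing. Expression was measured by RNA sequencing of total RNA from MDA-MB-468, a human breast cancer cell line of the triple-negative, basal-like type, grown in medium with serum and with no added treatment. In 3 libraries the cells carried the control hairpin (pLK0-shControl, here shControl), and in 3 they carried a hairpin against cytokeratin 5 (shCK5-22 in the titles, pLK0-shCK5-425222 in the characteristics, here shCK5). Both groups therefore carried a hairpin vector, and a single hairpin against KRT5 was sequenced. Whether the cells were pools or clones, and whether replicates were separate cultures, is not stated in the labels. P-values therefore measure the spread among these 6 libraries, and that spread may be technical.

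Lysosomes are acidic organelles in which many soluble hydrolases break down proteins, glycans, glycolipids and other lipids delivered by endocytosis and autophagy. Most of these enzymes are made in the endoplasmic reticulum, tagged with mannose 6-phosphate in the Golgi and carried to the lysosome, whose membrane is lined by heavily glycosylated proteins such as LAMP1 and LAMP2. TFEB, TFE3 and MITF are basic helix-loop-helix leucine zipper factors that bind a short palindromic element near the start of many lysosomal genes and switch these genes on when they enter the nucleus. In carcinoma cells, secreted cathepsins also cut extracellular matrix.

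Depth and identity of the libraries bear on every value. Total counts were 68810882 to 83594772 per library, and levels are given as CPM, the count scaled by library size and TMM factor (mean ± SD, n = 3 per group, where no library is named). KRT5, the targeted gene, had 2056, 2059.7 and 2017 CPM in the 3 shControl libraries, and in the 3 shCK5 libraries it had 17.2, 15.5 and 16.5 CPM. RB1 and SMAD4, which MDA-MB-468 is known to lack through deletion, had 2.00 and 0.235 CPM in shControl and 100.95 and 16.9 CPM in shCK5 (means of 3 libraries). Whether both groups derive from the same cells was not tested, and an effect of the hairpin cannot be told apart from a difference between cells. Identity of the line was read from 11 genes: KRT5, KRT8, KRT18, KRT19, EPCAM, EGFR, CDH1, ESR1, PGR, ERBB2 and VIM. The receptor genes ESR1, PGR and ERBB2, and VIM, are not markers of a triple-negative, basal-like line. Of the 11, 10 were tested, and 8 were lower and 2, VIM and ERBB2, higher in shCK5 (80% and 20%). Over all genes tested, 41.7% were lower and 40.9% higher. These counts include ESR1, VIM and ERBB2, which are not markers of the line. All keratins listed, EPCAM, EGFR, CDH1 and ESR1 were lower, with EGFR going from 2895 ± 44.3 to 735 ± 12.1 CPM. VIM, which encodes vimentin, went from 6.91 ± 0.480 to 987 ± 13.0 CPM, CDH1, which encodes E-cadherin, from 120.1 ± 3.604 to 3.89 ± 0.466 CPM and EPCAM from 316 ± 5.84 to 26.6 ± 0.124 CPM. PGR, which encodes the progesterone receptor, went from no count to 6 counts in all. Of 10 fibroblast markers, summing to 19.2 to 20.2 CPM in shControl and 12.3 to 14.4 CPM in shCK5, 3 were tested. Of these FAP and COL1A1 were lower and PDGFRB higher (log2 fold changes -4.56, -0.56 and 3.19), while LUM went from no count to 20 counts. Of 13 macrophage and leukocyte markers, summing to 16.8 to 19.5 and 3.29 to 4.27 CPM, 6 were tested. Of these 4 were lower and 1 higher (66.7% and 16.7%, against 41.7% and 40.9% of all genes tested). PTPRC, CD14, CSF1R and FCER1G were lower (log2 fold changes -3.47, -2.65, -2.64 and -1.87). CSF1R went from 11.6 ± 0.876 to 1.85 ± 0.408 CPM. MRC1 was higher (log2 fold change 2.83), from 8 counts in shControl and 60 in shCK5 in all. TYROBP, a signalling adaptor of myeloid cells, had no count in any library.

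The lysosomal genes took a like share of the counts in both groups, but nearly every tested member differed. The 43 genes together held between 0.357% and 0.364% of all counts in every library, and the ranges of the groups overlapped. On the TMM-scaled level their sum went from 3431 ± 11.8 to 3768 ± 31.4 CPM, a ratio of 1.10, and the sum of all genes tested had a ratio of 1.10. Of 39 tested members, 23 were higher and 15 lower in shCK5 by the edgeR quasi-likelihood test (Benjamini-Hochberg adjusted over all genes, threshold 0.05), and 1, NAGLU, was not called. Across all genes tested, 82.7% were called, 40.9% as higher and 41.7% as lower, so a call in itself does not set the members apart. The median log2 fold change of the tested members was 0.34, against -0.02 over all genes tested, and the median size of the change without its sign was 0.887 against 0.853. In 38 of the 39 tested members no shControl library lay within the shCK5 range or the reverse, and this held for 84.2% of all genes tested. Changes past 2-fold were found in 11 members that rose and 7 that fell (28.2% and 17.9%), against 19.6% and 24.4% of all genes tested. Replicates lay close together: the median coefficient of variation of the tested members was 2.96% in shControl and 3.24% in shCK5.

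Within the set, summed levels differed in several roles, and single abundant genes weigh heavily in these sums. The 6 membrane proteins and channels went from 789.7 ± 10.3 to 599 ± 2.28 CPM. The 4 lipid hydrolases went from 304 ± 6.42 to 275 ± 2.55 CPM. Within them LAMP1 fell from 531 to 262 CPM and PPT1 from 203 to 118 CPM (means). SCARB2, LAMP3 and ASAH1 also fell, while LAMP2, MCOLN1, SMPD1 and LIPA rose, so these roles did not fall as a whole. The 3 proteases outside the cysteine cathepsins went from 114 ± 1.45 to 255 ± 9.34 CPM. The 4 sulfatases went from 83.1 ± 2.08 to 193 ± 1.61 CPM and the 3 MiT factors from 92.6 ± 2.98 to 196 ± 0.669 CPM. Of these, IDS went from 31.2 to 127 CPM and TFE3 from 65.0 to 160 CPM (means), while ARSA and TFEB fell. Cysteine cathepsins (from 813 ± 7.67 to 932 ± 8.05 CPM), glycosidases (from 413 ± 5.08 to 443 ± 10.5 CPM) and activators with progranulin (from 821 ± 5.67 to 875 ± 19.8 CPM) had ratios nearer to that of the whole set. The order of the genes by level per kilobase of exon also changed. PSAP stayed first, going from 153 to 173 CPM per kb, while LAMP1 went from place 2 to 5 (92.5 to 45.7 CPM per kb) and CTSZ from 4 to 2 (57.4 to 133 CPM per kb). CTSH went from place 12 to 26 (14.2 to 4.03 CPM per kb) and GM2A from 7 to 24 (32.4 to 8.69 CPM per kb).

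**Figure D1:**
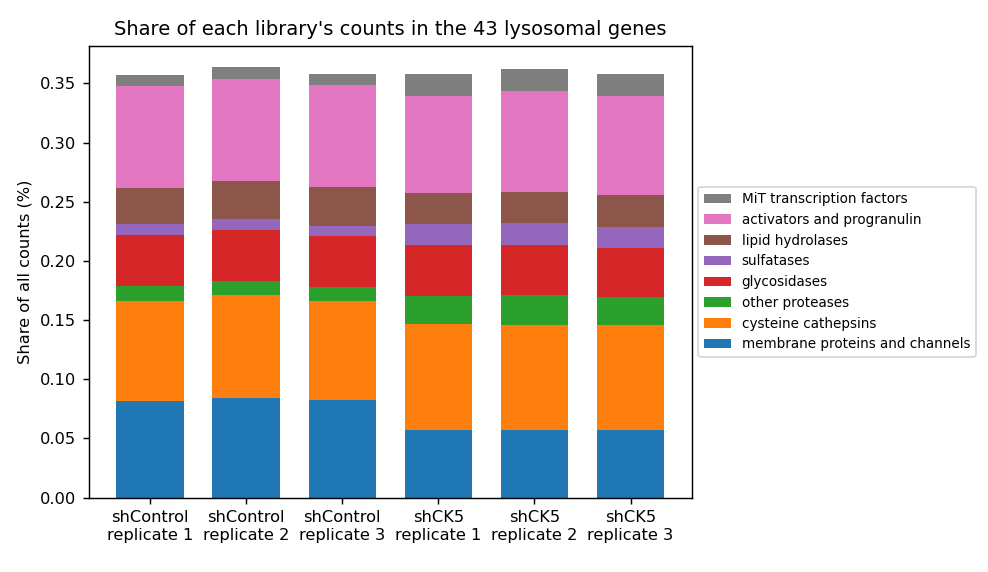
Share of each library's total counts (%, vertical axis) held by the 43 lysosomal genes, stacked by role, for the 3 shControl and 3 shCK5 libraries. The bars end between 0.357% and 0.364% in every library, while the blocks of the membrane proteins are smaller and those of the sulfatases, other proteases and MiT factors larger in shCK5.

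**Figure D2:**
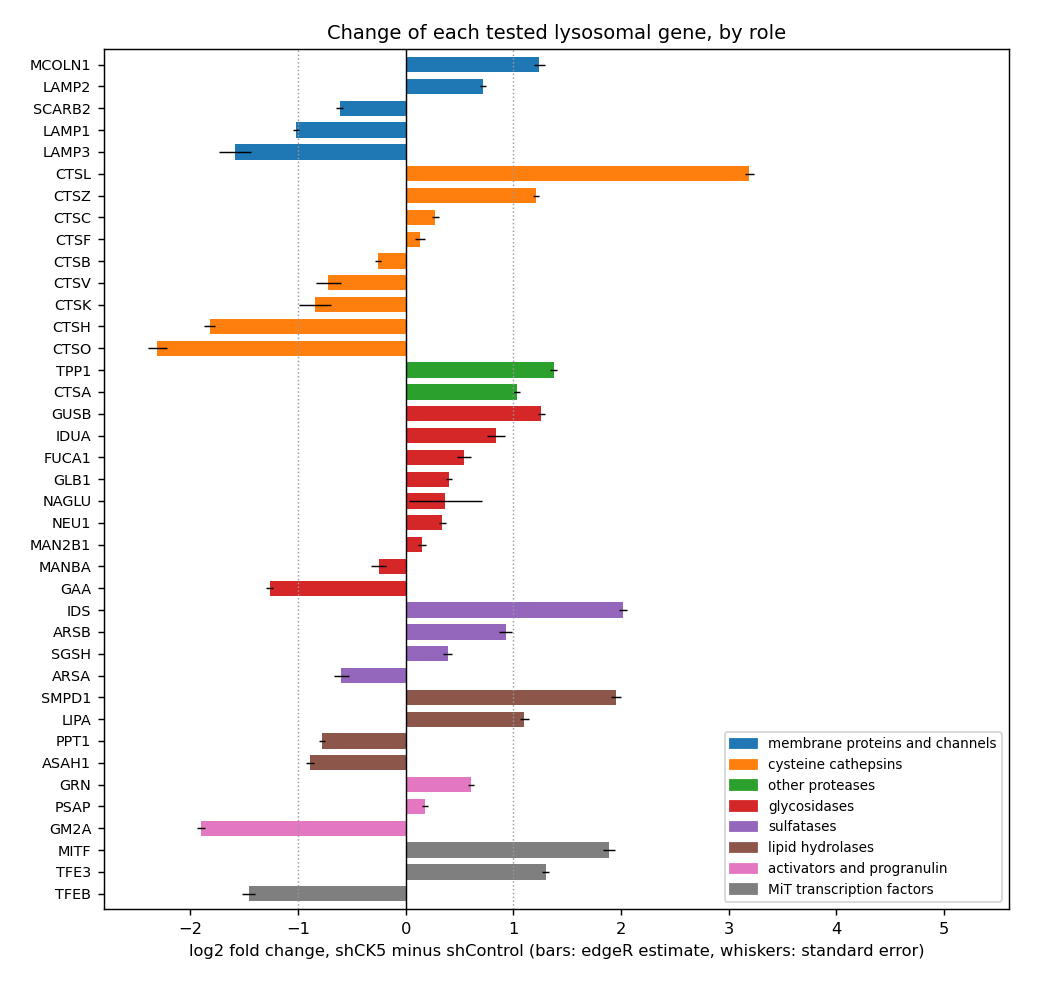
Log2 fold change of shCK5 minus shControl (horizontal axis, edgeR estimate with standard error) for the 39 tested lysosomal genes, coloured by role, with dotted lines at 2-fold. CTSL reaches 3.19 and CTSO -2.30, and all roles but the other proteases hold members on both sides of 0.

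The 3 MiT factors did not move together. TFEB (ENSG00000112561.17, chromosome 6, 41683978 to 41736259, minus strand, GRCh38) is known for its control of lysosome formation. TFEB had 20.1, 19.6 and 19.7 CPM in the 3 shControl libraries, and in the 3 shCK5 libraries it had 7.16, 7.11 and 7.41 CPM. It fell in shCK5 (log2 fold change -1.46, SE 0.0613, adjusted p = 3.97e-17), with all shCK5 libraries below all shControl libraries. TFE3 (ENSG00000068323.16, chromosome X, 49028726 to 49043486, minus strand), its close relative, had 67.8, 64.8 and 62.5 CPM in shControl against 159, 161 and 160.4 CPM in shCK5. It rose 2.46-fold (log2 fold change 1.30, SE 0.0316, adjusted p = 3.57e-22). MITF (ENSG00000187098.15, chromosome 3, 69739435 to 69968337, plus strand), best known as a regulator of pigment cells, had 7.85, 7.65 and 7.66 CPM in shControl against 29.7, 28.5 and 27.4 CPM in shCK5 and rose 3.70-fold (log2 fold change 1.89, SE 0.0568, adjusted p = 3.21e-20). The count of TFE3 divided by that of TFEB in the same library was 3.37, 3.31 and 3.17 in shControl and 22.2, 22.7 and 21.6 in shCK5. TFE3 was the highest of the 3 per kilobase of exon in both groups, at 15.2 and 37.4 CPM per kb, against 3.51 and 1.28 for TFEB and 1.08 and 3.97 for MITF. The 11 melanocyte markers summed to 4.59 to 5.93 CPM in shControl and 1.63 to 2.18 CPM in shCK5, and 4 of them, TYR, MLANA, S100B and SOX10, had no count in any library. Of the 4 that were tested, GPR143 fell from 4.02 ± 0.580 to 0.464 ± 0.110 CPM and PMEL from 0.981 ± 0.124 to 0.575 ± 0.132 CPM, TYRP1 rose from 0.110 ± 0.0998 to 0.492 ± 0.154 CPM and OCA2 was not called. TYRP1 had a log2 fold change of 2.19, which was 1.58 without shControl replicate 2 and 2.89 without shControl replicate 3, and it was not called by DESeq2 (adjusted p = 0.0681). Transcript levels do not show where the factors are in the cell, which is how these proteins are known to be controlled.

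The element bound by MiT factors contains the letters CACGTG, and its longer form read here is TCACGTGA. Both are palindromes, so a match counts on both strands, and each TCACGTGA also contains a CACGTG. In RefSeq promoters (GRCh38.p14), 31 of the 43 members had an entry, and the 250 bases before the start were searched. TCACGTGA was present in 4 of these 31 members (12.9%) and in 1.04% of all 27305 symbols in the table. CACGTG was present in 9 members (29.03%) and in 7.73% of all symbols. The 120 bases before the start are shown for the members with TCACGTGA, since these carry the letters the factors are known to read and yet include genes that rose and genes that fell. Capitals mark TCACGTGA. The stretches are MCOLN1 at chr19:7522504-7522623 (plus strand), CTSA at chr20:45891215-45891334 (plus strand), LAMP1 at chr13:113297119-113297238 (plus strand) and GAA at chr17:80101461-80101580 (plus strand).
MCOLN1: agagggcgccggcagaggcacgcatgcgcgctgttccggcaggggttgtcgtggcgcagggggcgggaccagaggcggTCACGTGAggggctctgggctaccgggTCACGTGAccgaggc
CTSA: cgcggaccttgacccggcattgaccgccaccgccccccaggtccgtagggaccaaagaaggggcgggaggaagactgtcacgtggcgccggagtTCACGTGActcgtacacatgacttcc
LAMP1: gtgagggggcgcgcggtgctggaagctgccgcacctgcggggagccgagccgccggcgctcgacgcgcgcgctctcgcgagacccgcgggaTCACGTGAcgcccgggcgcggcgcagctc
GAA: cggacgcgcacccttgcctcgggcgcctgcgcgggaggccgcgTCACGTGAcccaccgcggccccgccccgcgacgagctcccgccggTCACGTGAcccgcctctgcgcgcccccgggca
MCOLN1 and CTSA, the first pair, rose in shCK5, and LAMP1 and GAA, the second pair, fell. MCOLN1 and GAA each hold 2 copies within these 120 bases. A further copy in LAMP1 runs across its start and is not shown. A match is a description of the letters and not evidence of binding.

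Among membrane proteins, the 2 main LAMP genes moved in opposite directions. LAMP1 (ENSG00000185896.10, chromosome 13, 113297241 to 113323672, plus strand), whose promoter is printed above, had 527, 538 and 528 CPM in the 3 shControl libraries, and in the 3 shCK5 libraries it had 262, 261 and 264 CPM. It was 2.03-fold lower in shCK5 (log2 fold change -1.02, SE 0.0251, adjusted p = 4.68e-22). LAMP2 (ENSG00000005893.15, chromosome X, 120427827 to 120469365, minus strand), which is also needed for fusion of autophagosomes with lysosomes and for chaperone-mediated autophagy, had 139, 148 and 144 CPM in shControl against 234, 239 and 235 CPM in shCK5. It was 1.64-fold higher (log2 fold change 0.72, SE 0.0281, adjusted p = 8.56e-18). The ratio of LAMP2 to LAMP1 counts was 0.265, 0.275 and 0.272 in the shControl libraries and 0.895, 0.913 and 0.892 in the shCK5 libraries. Per kilobase of exon, LAMP1 and LAMP2 stood at 92.5 and 26.0 CPM per kb in shControl, and at 45.7 and 42.7 in shCK5. The LAMP family member of dendritic and alveolar type II cells, LAMP3, was low throughout, with 3.44, 3.75 and 4.54 CPM in shControl against 1.32, 1.44 and 1.13 CPM in shCK5. It fell 3.00-fold (log2 fold change -1.58, SE 0.149, adjusted p = 4.56e-10).

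MCOLN1, the calcium channel of the lysosomal membrane also called TRPML1, had 15.5, 14.9 and 16.1 CPM in the 3 shControl libraries, and in the 3 shCK5 libraries it had 37.1, 38.9 and 34.0 CPM. It rose 2.36-fold (log2 fold change 1.24, SE 0.0530, adjusted p = 5.28e-17). SCARB2, which encodes LIMP-2, a receptor that carries cargo to lysosomes, fell from 95.4 ± 0.924 to 62.4 ± 2.02 CPM (log2 fold change -0.61, SE 0.0323, adjusted p = 4.24e-15). CLN3, a membrane protein mutated in juvenile Batten disease, did not pass the filter, with 0.0805, 0.0627 and 0.0697 CPM in shControl against 0.0882, 0.0525 and 0.0830 CPM in shCK5.

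Cysteine cathepsins showed both the largest rise and the largest fall of the 39 tested members. CTSL (ENSG00000135047.14, chromosome 9, 87725519 to 87731393, plus strand), an endopeptidase that cuts proteins inside lysosomes and, when secreted, matrix proteins, had 12.1, 11.0 and 11.4 CPM in the 3 shControl libraries, and in the 3 shCK5 libraries it had 106, 104 and 105 CPM. It was 9.13-fold higher (log2 fold change 3.19, SE 0.0409, adjusted p = 6.34e-28), and its place among the 43 members by level per kilobase went from 24 to 6. CTSV (ENSG00000136943.10, chromosome 9, 97029679 to 97039643, minus strand), the closest paralog of CTSL and mainly expressed in thymus, testis and skin, had 4.51, 5.19 and 5.69 CPM in shControl against 2.65, 3.46 and 3.26 CPM in shCK5. It fell 1.64-fold (log2 fold change -0.72, SE 0.119, adjusted p = 6.26e-06), so the paralogs, which lie on the same chromosome, moved apart. The rows of the CTSL pseudogenes held at most 16 counts in any library.

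CTSZ, a carboxypeptidase, had 118, 117 and 117 CPM in shControl against 282, 266 and 267 CPM in shCK5. It rose 2.32-fold (log2 fold change 1.21, SE 0.0288, adjusted p = 2.21e-22). Another exopeptidase, the aminopeptidase CTSH, had 88.9, 77.5 and 85.2 CPM in shControl against 23.3, 25.2 and 22.8 CPM in shCK5. It was 3.53-fold lower (log2 fold change -1.82, SE 0.0472, adjusted p = 1.41e-21). CTSO, a member of the same protease family, had 12.4, 12.2 and 13.1 CPM in shControl against 2.59, 2.78 and 2.24 CPM in shCK5 and was 4.94-fold lower (log2 fold change -2.30, SE 0.0901, adjusted p = 8.29e-18). For CTSZ, CTSH and CTSO the groups did not overlap.

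The remaining 4 cysteine cathepsins had log2 fold changes of less than 1 in size. CTSB, the most abundant of the family in these libraries per kilobase in shControl at 62.9 CPM per kb, fell from 467 ± 13.1 to 392 ± 1.99 CPM (log2 fold change -0.26, SE 0.0262). CTSC, which activates serine proteases of immune cells, rose from 87.9 ± 1.21 to 107 ± 1.84 CPM (log2 fold change 0.28, SE 0.0294). CTSK, the collagen-degrading cathepsin of osteoclasts, fell from 3.20 ± 0.561 to 1.79 ± 0.166 CPM (log2 fold change -0.84, SE 0.149). CTSF rose from 24.5 ± 0.947 to 26.8 ± 0.650 CPM (log2 fold change 0.13, SE 0.0467, adjusted p = 0.0121), but its direction turned with scaling by library size alone, where the log2 fold change was -0.0047. CTSF was also not called without shControl replicate 1 (adjusted p = 0.06002). The count of CTSL divided by that of CTSB in the same library was 0.0262, 0.0228 and 0.0250 in shControl and 0.272, 0.265 and 0.268 in shCK5.

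**Figure D3:**
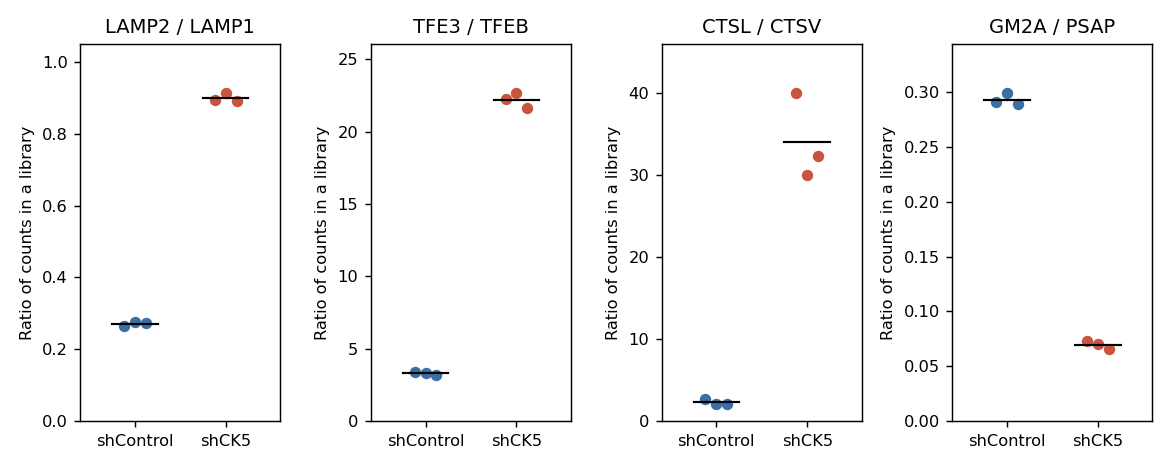
Ratio of the counts of a pair of lysosomal genes within each library (vertical axes from 0, no unit) for LAMP2 over LAMP1, TFE3 over TFEB, CTSL over CTSV and GM2A over PSAP; points are the 3 libraries of a group and lines their means. In each pair the groups are apart, with means of 0.270 and 0.9003 for LAMP2 over LAMP1, and of 0.293 and 0.0695 for GM2A over PSAP, in shControl and shCK5.

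Both tested proteases outside the cysteine cathepsins rose, as did 40.9% of all genes tested. CTSA, or protective protein, a serine carboxypeptidase that also stabilises beta-galactosidase and neuraminidase, had 75.2, 75.0 and 73.4 CPM in the 3 shControl libraries, and in the 3 shCK5 libraries it had 152, 159 and 146 CPM. It was 2.04-fold higher (log2 fold change 1.03, SE 0.0318, adjusted p = 5.48e-20). TPP1, a tripeptidyl peptidase lost in late infantile neuronal ceroid lipofuscinosis, had 40.5, 38.96 and 39.4 CPM in shControl against 105, 105 and 98.4 CPM in shCK5 and was 2.59-fold higher (log2 fold change 1.37, SE 0.0349, adjusted p = 8.86e-22). The partners of CTSA in its complex rose less: GLB1, the beta-galactosidase, from 74.0 ± 0.820 to 97.7 ± 2.51 CPM and NEU1, the neuraminidase, from 56.8 ± 1.38 to 72.1 ± 3.15 CPM (log2 fold changes 0.40, SE 0.0310, and 0.34, SE 0.0362). CTSD, the main aspartic protease of lysosomes, did not pass the filter and is taken up below with the other rows near 0.

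Glycosidases rose in 6 of 9 tested members and fell in 2 (66.7% and 22.2%, against 40.9% and 41.7% of all genes tested). GUSB, the beta-glucuronidase often used as a reference gene, had 49.6, 47.9 and 50.4 CPM in the 3 shControl libraries, and in the 3 shCK5 libraries it had 119, 122 and 113 CPM. It was 2.40-fold higher (log2 fold change 1.26, SE 0.0341, adjusted p = 3.38e-21). GUSB has near-identical copies whose reads could be shared with it; the most abundant of their rows, GUSBP1, went from 27.5 to 26.0 CPM and was not called (adjusted p = 0.0952). Of the other copies tested, GUSBP9 and GUSBP3 rose (log2 fold changes 1.46 and 0.39) and GUSBP11 and GUSBP2 fell (-1.15 and -0.45), each at under 10 CPM in both groups. GAA, the acid alpha-glucosidase that degrades glycogen and is lost in Pompe disease, went the other way, with 160.4, 153 and 159 CPM in shControl against 65.7, 67.4 and 63.9 CPM in shCK5. It was 2.40-fold lower (log2 fold change -1.26, SE 0.0311, adjusted p = 4.64e-22).

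IDUA, the alpha-iduronidase of heparan and dermatan sulfate breakdown, had 4.98, 4.50 and 4.96 CPM in shControl against 8.96, 8.28 and 8.61 CPM in shCK5 and rose 1.79-fold (log2 fold change 0.84, SE 0.0840, adjusted p = 1.44e-09). FUCA1, the alpha-fucosidase, had 13.5, 14.1 and 15.3 CPM in shControl against 22.1, 21.0 and 19.0 CPM in shCK5 and rose 1.45-fold (log2 fold change 0.54, SE 0.0624, adjusted p = 1.94e-08). The mannosidases changed least: MAN2B1 rose from 43.3 ± 1.28 to 48.1 ± 0.996 CPM and MANBA fell from 13.0 ± 0.857 to 11.0 ± 0.741 CPM (log2 fold changes 0.15, SE 0.0375, and -0.25, SE 0.0698). MAN2B1 lost its call with scaling by library size alone (adjusted p = 0.686). NAGLU, the alpha-N-acetylglucosaminidase, was near 0, with 0.322, 0.426 and 0.334 CPM in shControl against 0.617, 0.380 and 0.401 CPM in shCK5, overlapping groups and no call (log2 fold change 0.37, SE 0.338, adjusted p = 0.315).

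Of the 4 sulfatases, 3 rose and 1 fell (75% and 25%, against 40.9% and 41.7% of all genes tested). IDS, the iduronate-2-sulfatase lost in Hunter syndrome, had 31.0, 32.7 and 29.9 CPM in the 3 shControl libraries, and in the 3 shCK5 libraries it had 129.8, 126 and 124 CPM. It was 4.06-fold higher (log2 fold change 2.02, SE 0.0362, adjusted p = 6.04e-25), and its pseudogene row IDSP1 had no count. ARSB, which acts on dermatan and chondroitin sulfate, had 14.0, 14.8 and 12.3 CPM in shControl against 25.6, 26.3 and 26.6 CPM in shCK5 and was 1.90-fold higher (log2 fold change 0.93, SE 0.0586, adjusted p = 1.80e-13). SGSH, the heparan N-sulfatase, had 22.9, 21.8 and 23.1 CPM in shControl against 29.5, 29.8 and 29.4 CPM in shCK5 and was 1.31-fold higher (log2 fold change 0.39, SE 0.0452, adjusted p = 2.04e-08). ARSA, which acts on the myelin lipid sulfatide, was the member that fell, with 16.2, 15.3 and 15.4 CPM in shControl against 9.20, 10.4 and 11.5 CPM in shCK5 (log2 fold change -0.60, SE 0.0712, adjusted p = 3.31e-08). SGSH and GAA, which moved in opposite directions, lie 86.8 kb apart on chromosome 17, whereas SMPD1 and TPP1, 218 kb apart on chromosome 11, both rose.

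Lipid hydrolases were split evenly, with 2 higher and 2 lower (50% each, against 40.9% and 41.7% of all genes tested). SMPD1, the acid sphingomyelinase, which makes ceramide, had 11.4, 11.6 and 11.6 CPM in the 3 shControl libraries, and in the 3 shCK5 libraries it had 46.1, 44.8 and 43.2 CPM. It was 3.87-fold higher (log2 fold change 1.95, SE 0.0469, adjusted p = 2.76e-22). ASAH1, the acid ceramidase, which breaks ceramide down, had 50.01, 49.96 and 50.5 CPM in shControl against 27.2, 27.0 and 27.2 CPM in shCK5 and was 1.85-fold lower (log2 fold change -0.89, SE 0.0381, adjusted p = 5.97e-17). The enzymes of adjacent steps thus differed in direction. LIPA, the acid lipase that frees cholesterol from its esters, had 37.4, 40.1 and 40.6 CPM in shControl against 85.6, 80.5 and 87.7 CPM in shCK5 and was 2.15-fold higher (log2 fold change 1.10, SE 0.0393, adjusted p = 1.11e-18). PPT1, which removes palmitate from proteins, had 198, 204 and 207 CPM in shControl against 116, 119.97 and 119 CPM in shCK5 and was 1.71-fold lower (log2 fold change -0.78, SE 0.0283, adjusted p = 1.71e-18).

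Activator proteins present lipids to these enzymes. PSAP, the precursor of the 4 saposins, was the highest of the 43 members per kilobase in both groups (153 and 173 CPM per kb) and had 488, 495 and 501 CPM in the 3 shControl libraries, and in the 3 shCK5 libraries it had 542, 573 and 567 CPM. Its rise was small (log2 fold change 0.18, SE 0.0265, adjusted p = 9.36e-07) and not called with scaling by library size alone (adjusted p = 0.132). GM2A, the cofactor of beta-hexosaminidase A in the breakdown of ganglioside GM2, had 142, 148 and 145 CPM in shControl against 39.7, 40.03 and 37.0 CPM in shCK5. It was 3.73-fold lower (log2 fold change -1.90, SE 0.0343, adjusted p = 7.26e-25). GRN, which encodes progranulin, a secreted growth factor precursor that is processed in lysosomes and binds prosaposin, had 189, 174 and 181 CPM in shControl against 274, 283 and 271 CPM in shCK5 and was 1.52-fold higher (log2 fold change 0.61, SE 0.0301, adjusted p = 1.27e-15).

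**Figure D4:**
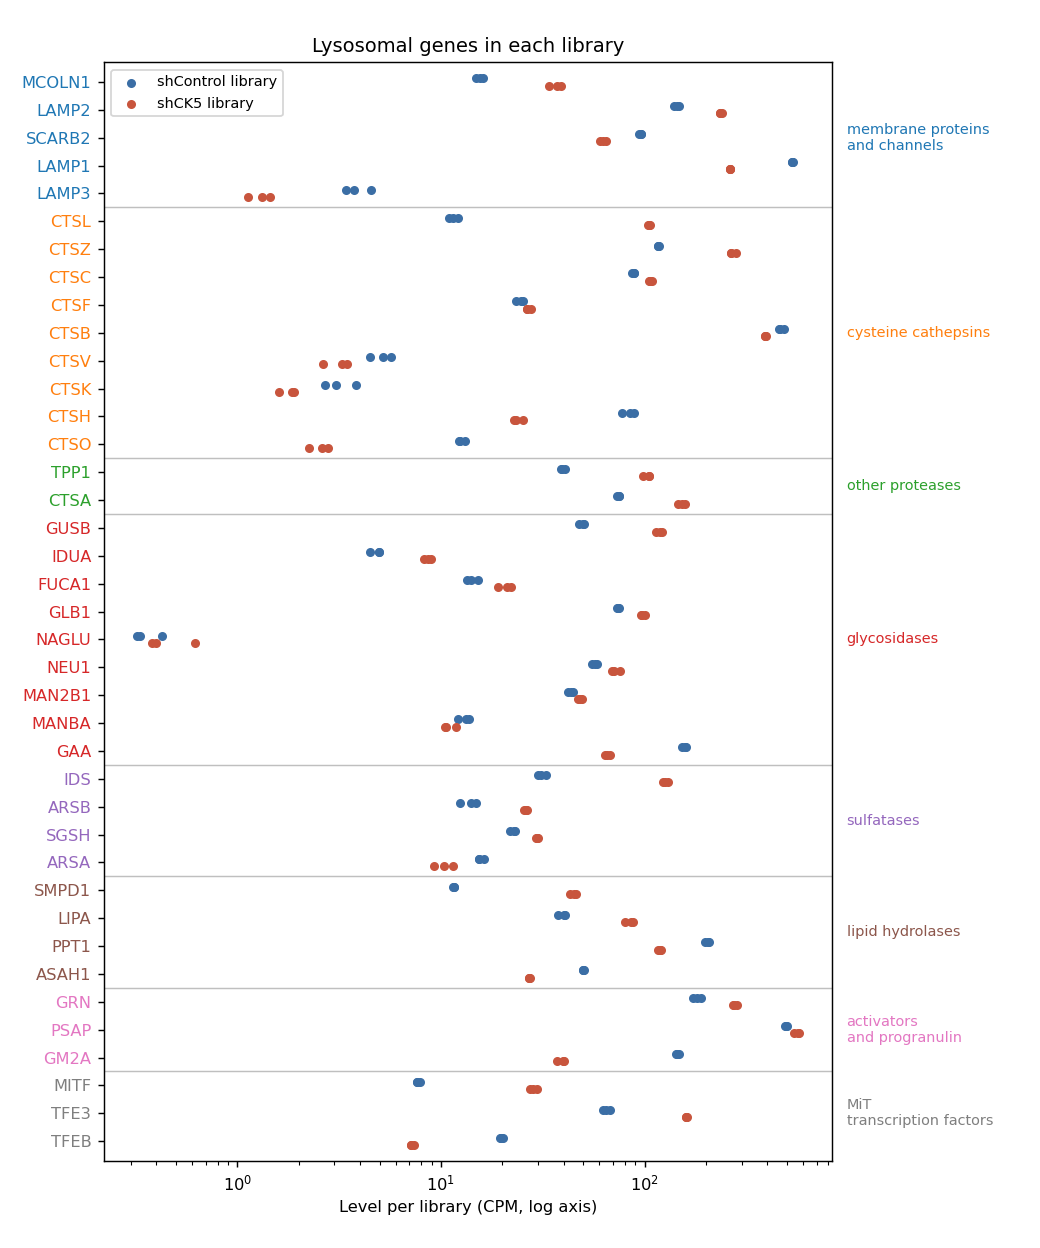
Level of each of the 39 tested lysosomal genes in each library (CPM, log axis), grouped by role; blue points are the 3 shControl and red points the 3 shCK5 libraries. The groups do not overlap in 38 of the 39 genes, NAGLU being the exception.

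Several members that every cell with lysosomes is thought to express had rows at or near 0, and these were not read as lack of expression. GLA, the alpha-galactosidase A lost in Fabry disease, and HEXA, the alpha subunit of beta-hexosaminidase, had no count in any library, where 3 counts would be 0.0376 to 0.0418 CPM by counting error alone. CTSD had 0.134, 0.0251 and 0.153 CPM in shControl against 0, 0.0525 and 0.0277 CPM in shCK5. In GENCODE v29, an annotation that may differ from the one the authors counted on, the whole of GLA (chromosome X, 101397803 to 101408012, minus strand) lies inside the span of the read-through gene RPL36A-HNRNPH2 on the other strand. Spans of other genes together covered 99.6% of HEXA (chromosome 15, 72340919 to 72376476, minus strand), 95.9% of NAGLU, 94.8% of CTSD (chromosome 11, 1752752 to 1764573, minus strand) and 88.1% of CLN3. Of 1618 protein-coding genes lying wholly within the spans of other genes, 93.4% had no count in any library, against 12.9% of 6935 with no shared span. The share was 40.1% where 95% to under 100% of the span was shared, the range of HEXA and NAGLU. It was 7.36% where 50% to under 95% was shared, the range of CTSD and CLN3, and so lower there than with no shared span. How reads in shared spans were counted was not tested. IDS and TPP1 have 87.4% and 67.4% of their span shared. Their levels also enter the sums by role and the order per kilobase, and an effect of the shared span on them was not tested. Without the members that share 50% or more of their span, 21 members were higher and 15 lower (chosen after seeing the data).

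Among lysosomal genes outside the 43, rises outnumbered falls. Of 32 other hydrolases and luminal proteins tested, 21 rose and 8 fell (65.6% and 25.0%, against 40.9% and 41.7% of all genes tested). Their median log2 fold change was 0.60, against -0.02 over all genes tested. GALC, the galactocerebrosidase, had 0.0268, 0.0752 and 0.0279 CPM in shControl against 10.1, 10.5 and 10.3 CPM in shCK5, from 10 counts in shControl in all (log2 fold change 7.81, SE 0.195, and 8.47 without shControl replicate 2). CTSE, an aspartic protease of endosomes, rose from 0.0430 ± 0.0387 to 1.02 ± 0.123 CPM (log2 fold change 4.48, SE 0.456, and 5.14 without shControl replicate 2). SIAE, a sialic acid acetylesterase, rose from 1.52 ± 0.304 to 15.6 ± 0.789 CPM (log2 fold change 3.37, SE 0.103). Of 34 other membrane proteins and transporters, 24 rose and 6 fell (70.6% and 17.6%, median 0.63). LAPTM5, a membrane protein best known in blood cells, rose from 0.774 ± 0.270 to 30.6 ± 0.601 CPM (log2 fold change 5.31, SE 0.105). The 13 macrophage and leukocyte markers together summed to 16.8 to 19.5 CPM in shControl and 3.29 to 4.27 CPM in shCK5. Among them CSF1R, CD14, PTPRC and FCER1G fell. CSF1R went from 11.6 ± 0.876 to 1.85 ± 0.408 CPM and PTPRC from 0.697 ± 0.137 to 0.0623 ± 0.0322 CPM. MRC1 rose from 0.0359 ± 0.0172 to 0.262 ± 0.118 CPM. The part of such cells in the LAPTM5 value was not tested. GPR155, a cholesterol-sensing protein of the lysosomal membrane, and MFSD12, a lysosomal and melanosomal transporter, followed with log2 fold changes of 1.63 (SE 0.198) and 1.48 (SE 0.0589).

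The proton pump that acidifies lysosomes did not shift one way. Of 18 V-ATPase subunits tested, 8 rose and 9 fell (44.4% and 50%, median log2 fold change -0.11). Over all genes tested 40.9% were higher and 41.7% lower, so this split in itself does not set the subunits apart. The summed level of the subunits was 1077 to 1112 CPM in shControl and 1086 to 1122 CPM in shCK5. The largest changes were falls of ATP6V1B1, ATP6V1C2 and ATP6V0A4 (log2 fold changes -2.23, SE 0.148, -1.90, SE 0.134, and -1.82, SE 0.0518), which encode isoforms known from kidney and other specialised epithelia. ATP6V1B1 lies wholly within the spans of other genes, and how its reads were counted was not tested. The subunits ATP6V0C and ATP6V1F, also wholly within other spans, had no count in any library and are missing from the sum. Among 17 genes of enzyme tagging and sorting, 7 rose and 10 fell (41.2% and 58.8%, median -0.13). GNPTAB, which encodes subunits of the phosphotransferase that starts the mannose 6-phosphate tag, fell from 45.6 ± 1.28 to 16.7 ± 0.271 CPM (log2 fold change -1.45, SE 0.0438). AP3B1, an adaptor subunit for lysosomal membrane proteins, rose from 52.6 ± 1.10 to 109.8 ± 2.10 CPM, and SORL1, a sorting receptor, fell from 50.8 ± 1.24 to 25.0 ± 2.05 CPM.

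Against shares of 40.9% higher and 41.7% lower over all genes tested, genes of nutrient sensing on the lysosomal surface mostly rose. Of 17 tested, 11 were higher and 1 lower (64.7% and 5.88%), with a median log2 fold change of 0.29. With scaling by library size alone 4 were lower, and without shControl replicate 1, or without shCK5 replicate 3, 2 were lower. The gene that fell, DEPDC5, a subunit of the GATOR1 complex that restrains mTORC1, had a log2 fold change of -0.92, SE 0.0560. It is named with its values in view, and 99.3% of its span is shared with other genes. LAMTOR1, LAMTOR5, FLCN and FNIP1, with 99.9% or more of their span shared, had no count in any library and were not tested. RRAGD, a Rag GTPase that recruits mTORC1 and a known target of MiT factors, rose from 9.71 ± 0.603 to 41.2 ± 0.951 CPM (log2 fold change 2.08, SE 0.0520), and so did TSC1, a brake on the GTPase RHEB, from 28.3 ± 0.667 to 60.7 ± 1.69 CPM, and RHEB itself, which activates mTORC1, from 156 ± 4.53 to 315 ± 4.73 CPM. Autophagy genes, with 12 of 27 higher and 11 lower (44.4% and 40.7%, median 0.05), lay close to the shares over all genes tested. In the ATG8 family, MAP1LC3A rose from 0.819 ± 0.206 to 8.84 ± 0.320 CPM. GABARAPL1 fell from 54.8 ± 2.83 to 13.6 ± 0.440 CPM and MAP1LC3B from 73.5 ± 2.77 to 61.6 ± 2.39 CPM (log2 fold change -0.25 for MAP1LC3B). GABARAPL2 had no count and GABARAP was near 0, with 100% and 85.0% of their spans shared, and neither was tested. ULK2, a kinase that starts autophagy, fell from 29.7 ± 1.48 to 7.81 ± 0.254 CPM.

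A list of cysteine protease inhibitors held the highest fold changes of the lists read here. It contains cystatins, stefins and the serpins SERPINB3 and SERPINB4. Of 9 tested, 5 rose, 3 fell and 1, SERPINB4, was not called. The shares were 55.6% higher and 33.3% lower, against 40.9% and 41.7% of all genes tested. The median log2 fold change was 0.34. Without the sign, the median was 3.99, beside 0.840 for the 9 cysteine cathepsins and 0.853 for all genes tested. CST3, which encodes the secreted inhibitor cystatin C, had 0.134, 0 and 0 CPM in shControl against 208, 211 and 202 CPM in shCK5. All 10 of its shControl counts came from replicate 1, and the log2 fold change was 12.14, SE 0.117, or 16.94 without that library and 11.53 without shControl replicate 2. CST4 and CST2, salivary-type cystatins, had no count in shControl and reached 6.08 and 3.91 CPM in shCK5 (at least 458-fold and 295-fold higher, taking 3 counts over the 3 libraries as the floor). CST5 also went from no count to a mean of 0.0430 CPM, too low for testing. CST1, another of the salivary type, rose from 0.0268 ± 0.0465 to 17.1 ± 1.57 CPM. CST1, CST2 and CST4 are close copies of each other, so their split is uncertain. The intracellular inhibitor CSTA (stefin A) fell from 5.04 ± 0.743 to 0.319 ± 0.144 CPM (log2 fold change -3.99, SE 0.206; picked with its values in view), and CSTB (stefin B) was 213 ± 1.98 CPM in shControl and 183 ± 7.74 CPM in shCK5.

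**Figure D5:**
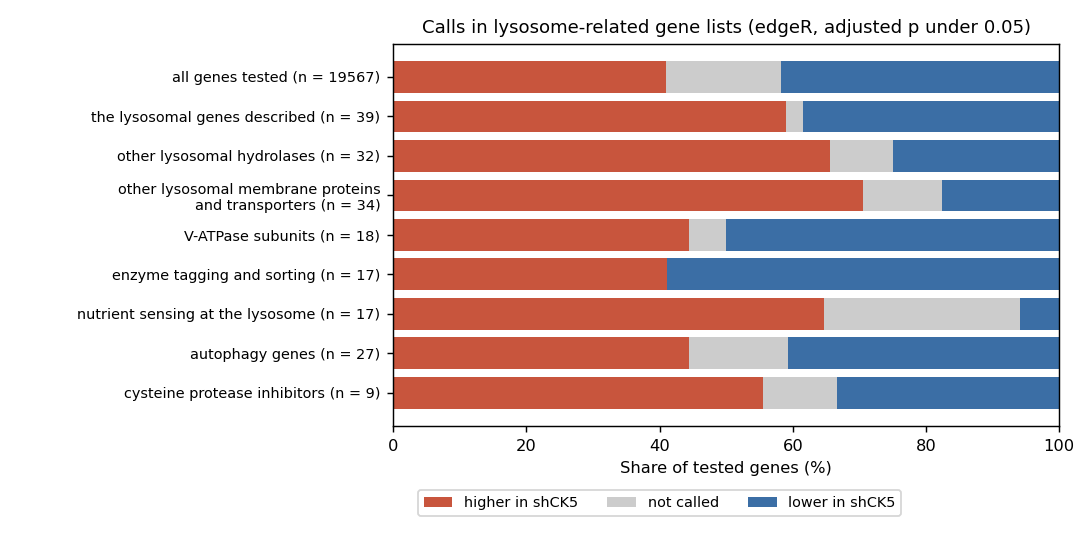
Share of tested genes (%, horizontal axis) called higher in shCK5 (red), lower (blue) or not called (grey) among all genes tested, the lysosomal genes described, and 7 lysosome-related lists, with the number tested in brackets. The red share is 40.9% over all genes, 59.0% among the lysosomal genes described, 65.6% among other hydrolases and 70.6% among other membrane proteins and transporters.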

How the data were processed

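Raw read counts per gene name were deposited by the authors in 1 table with 6 columns, with no normalization. Per the submitters' processing notes, cutadapt, STAR, SAMtools and Cufflinks were used with the genome GRCh38; per the file headers, counts came from sorted alignments. The counting program, annotation and strand setting are not stated there, and reads of overlapping or antisense genes cannot be told apart. Columns were assigned to samples by name and groups by title.

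Counts were analysed in R 4.3.3. Rows passing filterByExpr of edgeR 4.0.16 were scaled by TMM and compared with glmQLFit and glmQLFTest, with no covariate, over all 19567 genes. P-values were adjusted by Benjamini-Hochberg. Log2 fold changes are shCK5 minus shControl, with the standard error taken from the size of the change and its F statistic. The step was tested on simulated data in which only a small part of the genes changed, unlike in these libraries. That test therefore cannot show how the scaling performs here. Levels are CPM, as mean ± SD (SD, n = 3). Exon lengths, coordinates and spans came from GENCODE v29 on GRCh38. Promoters came from RefSeq. Alternatives were scaling by library size or RLE factors, no filter, DESeq2 1.42.0, a replicate block, leaving out each library, and a 1.5-fold limit.

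The members and lists were chosen with earlier results of these data known. All 43 members are reported. Those in roles of 4 or fewer, the 4 with the largest change in larger roles, and those not called or not tested are given by library. Of each other list, the 3 called genes with the largest change and any going from no count to a count are named. Some further list genes are named with their values in view. PIP4P1 was the only list gene without a row.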

Additional observations from a re-analysis of the deposited data

How the results depend on the processing

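Of 429 recomputed log2 fold changes (39 tested members under 11 alternatives), 425 kept their direction and their side of the threshold. MAN2B1 and PSAP lost their call with scaling by library size alone and CTSF without shControl replicate 1, and the value of CTSF turned to -0.0047 with scaling by library size alone, which moved the median of all genes from -0.0194 to -0.156. That scaling left 20 members higher and 15 lower, and 4 nutrient sensing genes lower. Past 1.5-fold, 15 members were higher and 13 lower, against 23 and 15 with no limit on the fold, so the higher count moved most. The share of all genes past 1.5-fold was not computed, so these counts have no background beside them. Leaving out each library in turn gave 22 to 23 higher and 15 to 16 lower members, and 1 to 2 lower nutrient sensing genes (2 without shControl replicate 1 or without shCK5 replicate 3). No member's log2 fold change moved by more than 0.246 in these refits. CTSD entered the test in some of them and was called lower without shControl replicate 2 (adjusted p = 0.0122) and without shCK5 replicate 2 (adjusted p = 0.0306).

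Replicate numbers are shared between groups in the titles. Deviations of same-numbered libraries from their group means had correlations of -0.0105 to 5.75e-05 across genes, so the numbers were not taken as a pairing. With the replicate block, 23 members were higher and 15 lower, as without it, and 15926 of all genes were called instead of 16177. The values of the members with counts below 1 CPM, CTSD, CLN3 and NAGLU, rest on few counts. Whether depth or the spans shared with other genes limit these rows was not tested.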

Other observations

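The 3 tested members on the X chromosome, LAMP2, IDS and TFE3, all rose in shCK5. Among 600 tested genes on this chromosome, 52.0% were called higher and 31.8% lower, against 40.9% and 41.7% of all genes tested. CTSL and CTSV, which moved apart, lie on chromosome 9, where 60.3% of 688 tested genes were higher and 28.2% lower. On chromosome 4, SCARB2, CTSO and MANBA fell and IDUA rose, with 50.6% of tested genes there higher and 31.2% lower.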
